A study of Homo sapiens with 24 samples.

Results

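The 10 genes described here encode subunits of condensin and cohesin: SMC2, SMC4, NCAPD2, NCAPG, NCAPH, NCAPD3, NCAPG2, SMC1A, SMC3 and RAD21. They were chosen by name among 59609 gene symbols in the count table. In the study, wild-type cells of 2 breast cancer lines without ER were used, the mesenchymal MDA-MB-231 line and the apocrine, epithelial MDA-MB-453 line. In each line the groups were DMSO (vehicle), abemaciclib at 500 nM (an inhibitor of CDK4 and CDK6), fulvestrant at 5 nM (a selective ER degrader) and the combination at the same doses, each for 5 days with n = 3 biological replicates. The experiment was performed once, so the p-values given here measure the spread between these replicates. MDA-MB-231 was grown in RPMI and MDA-MB-453 in DMEM, so that cell line and medium cannot be told apart in any difference between lines. Gene counts came from 3′ RNA-seq, and levels are given as CPM, a gene's counts scaled to a common library total. Percentages of DMSO are ratios of mean CPM. Log2 fold changes were fitted with a further scaling between libraries, so they can differ from those percentages.

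Condensin and cohesin are ring-shaped complexes built on pairs of SMC ATPases. Condensin compacts chromosomes for mitosis: SMC2 and SMC4 are shared by both of its forms, whereas NCAPD2, NCAPG and NCAPH make condensin I and NCAPD3 and NCAPG2, with NCAPH2, make condensin II. Cohesin, in which RAD21 closes a ring of SMC1A and SMC3, holds sister chromatids together from S phase to anaphase and also folds interphase chromatin into loops. Many condensin subunits and cohesin regulators are transcribed in a cell cycle-dependent manner, through E2F sites near the promoter or through the cell cycle genes homology region (CHR), which works with upstream CCAAT boxes. Because the RNA came from bulk cultures, fewer cycling cells and less RNA per cell cannot be told apart in any of the levels below.

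The promoters are shown first, so that the genes that fell furthest can be set beside the one that changed least. RefSeq (GRCh38.p14) windows of 300 bases, from 250 before to 50 after an annotated start, were given for 9 of the genes, 13 windows in all. RAD21 had no entry. Both strands were searched for E2F letters (TTCCCGC or TTCGCGC or TTGCCGC or TTGGCGC), CHR letters (TTTGAA or TTCGAA) and CCAAT, whose matches did not overlap one another in these windows. The stretches below are the 200 bases before the start of NCAPG, NCAPH and NCAPG2, the 3 genes with the lowest fitted fold changes with abemaciclib in MDA-MB-453, and 189 bases upstream of SMC3, the gene with the smallest change there. Capitals mark the motif letters on either strand.
NCAPG, chr4:17810779-17810978, plus strand: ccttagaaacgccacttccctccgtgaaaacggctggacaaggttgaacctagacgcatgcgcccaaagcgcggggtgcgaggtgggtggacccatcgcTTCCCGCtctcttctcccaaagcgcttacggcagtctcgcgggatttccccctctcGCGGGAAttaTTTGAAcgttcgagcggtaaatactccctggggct
NCAPH, chr2:96335566-96335765, plus strand: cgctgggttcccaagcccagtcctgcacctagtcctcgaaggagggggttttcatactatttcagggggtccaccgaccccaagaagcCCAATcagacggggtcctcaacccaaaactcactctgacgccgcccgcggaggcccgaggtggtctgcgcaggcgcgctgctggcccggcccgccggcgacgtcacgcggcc
NCAPG2, chr7:158704805-158705004, minus strand: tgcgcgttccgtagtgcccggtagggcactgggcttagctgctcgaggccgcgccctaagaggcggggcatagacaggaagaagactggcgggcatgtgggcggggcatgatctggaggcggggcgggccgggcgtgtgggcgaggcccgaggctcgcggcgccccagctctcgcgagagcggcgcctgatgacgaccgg
SMC3, chr10:110567495-110567683, plus strand: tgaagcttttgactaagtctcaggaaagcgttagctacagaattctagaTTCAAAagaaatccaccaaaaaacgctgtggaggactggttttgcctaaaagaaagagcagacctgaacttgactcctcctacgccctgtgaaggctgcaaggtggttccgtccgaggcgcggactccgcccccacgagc

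NCAPG carried E2F letters at positions -101 and -45 and CHR letters at -35, counted from -1 for the base before the start. The NCAPH stretch held a CCAAT box at -112 and neither of the other motifs. That of NCAPG2 held none, although CHR letters lay at position 36 after its start. SMC3 had CHR letters at -151. NCAPD3, which was not called in MDA-MB-453 either, had E2F, CHR and CCAAT letters at its second start, so the letters did not separate the genes that fell furthest from those that changed little. E2F letters were present in 4 of the 13 windows against 13.0% of 35116 promoter windows, CHR letters in 7 against 16.4%, and CCAAT in 3 against 34.6%. E2F or CHR letters together were in 8 of the 13, against 27.9%. A match describes the letters and is not evidence of binding.

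**Figure D1:**
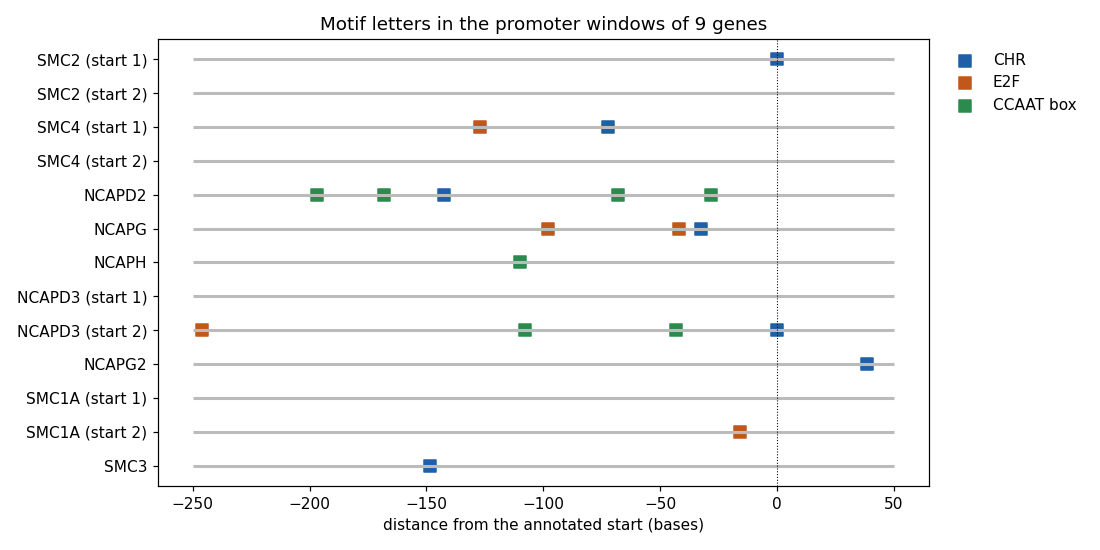
Motif letters in the 13 RefSeq promoter windows of 9 genes, with distance from the annotated start in bases on the x axis and 1 line per start. Squares mark E2F, CHR and CCAAT letters, and NCAPG shows both E2F and CHR letters within 101 bases of its start.

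Libraries held 2873558 to 4158762 counts, so a floor of 3 counts over a group corresponded to 0.255 to 0.30 CPM. MDA-MB-231 expressed VIM, CD44 and ZEB1, whereas MDA-MB-453 had 0 counts of VIM and CD44 and expressed FOXA1, ERBB2 and KRT8. The ER gene ESR1 was at 0 counts in 21 of the 24 libraries and reached at most 8 counts. Mitochondrial genes took 8.69% to 9.24% of counts with DMSO or fulvestrant and 11.1% to 14.0% with abemaciclib or the combination in MDA-MB-231, and 13.3% to 16.0% and 20.8% to 25.5% in MDA-MB-453. A further property, the A-rich index, is the median log2 ratio to DMSO of 3856 genes with at least 5 internal A-rich windows in their transcript minus that of 1948 genes with none, a measure of interest because 3′ libraries are primed on A-rich sequence. In MDA-MB-453 the index was 0.28 and 0.29 in fulvestrant replicates 1 and 2 but 0.03 in replicate 3, and 0.14 to 0.27 with abemaciclib and 0.15 to 0.16 with the combination. In MDA-MB-231 it was -0.16, -0.18 and -0.01 with abemaciclib and -0.03 to 0.05 with the combination. With fulvestrant it was 0.03 in replicate 1 but -0.14 and -0.16 in replicates 2 and 3 of that line. Transcripts of 9 of the 10 genes had 5 or more such windows and NCAPD2 had 4. Results of the 10 genes are therefore given with the index as a covariate where that changed a call. For the other genes named below, whether the covariate would change a call was not examined. The index comes from these same libraries, and with DMSO in MDA-MB-453 it was only -0.03 to 0.02. It thus went along with abemaciclib there, and as a covariate it can take up or add treatment effect.

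With vehicle alone for 5 days, the condensin genes among the 10 were lower in MDA-MB-453 than in MDA-MB-231, and the cohesin genes were split. Of the 10 genes, 8 were lower and 1 was higher in MDA-MB-453 under DMSO (edgeR quasi-likelihood test, adjusted p below 0.05), where 35.6% of the 12750 genes tested were lower and 34.3% were higher. NCAPG, a HEAT-repeat subunit of condensin I, differed most among the 10. It measured 219, 206 and 230.0 CPM in MDA-MB-231 and 22.8, 26.3 and 16.9 CPM in MDA-MB-453, with no overlap (log2 fold change -3.25 ± 0.16 (SE), adjusted p = 8.31e-24). SMC2, one of the condensin ATPases, was next, at 171 to 176 CPM against 59.3 to 68.1 CPM (-1.41 ± 0.14, adjusted p = 3.97e-12).

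The other condensin genes were lower in MDA-MB-453 by 0.70 to 1.16 on the log2 scale: NCAPD3 by a log2 value of -1.16, NCAPD2 of -1.15, SMC4 of -1.01, NCAPH of -0.81 and NCAPG2 of -0.70. SMC1A, a cohesin ATPase, went the other way, at 92.4, 77.4 and 95.1 CPM in MDA-MB-231 and 151, 142 and 135 CPM in MDA-MB-453 (0.75 ± 0.15, adjusted p = 3e-05). Its partner SMC3 was lower in MDA-MB-453 (-0.75 ± 0.15, adjusted p = 3.3e-05). RAD21 overlapped between the lines, at 248 to 287 CPM and 238 to 274 CPM, and did not pass the test (-0.04 ± 0.11, 95% interval -0.25 to 0.17, adjusted p = 0.766). Cohesin subunits thus did not share 1 direction between the lines, whereas all 7 condensin genes did.

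**Figure D2:**
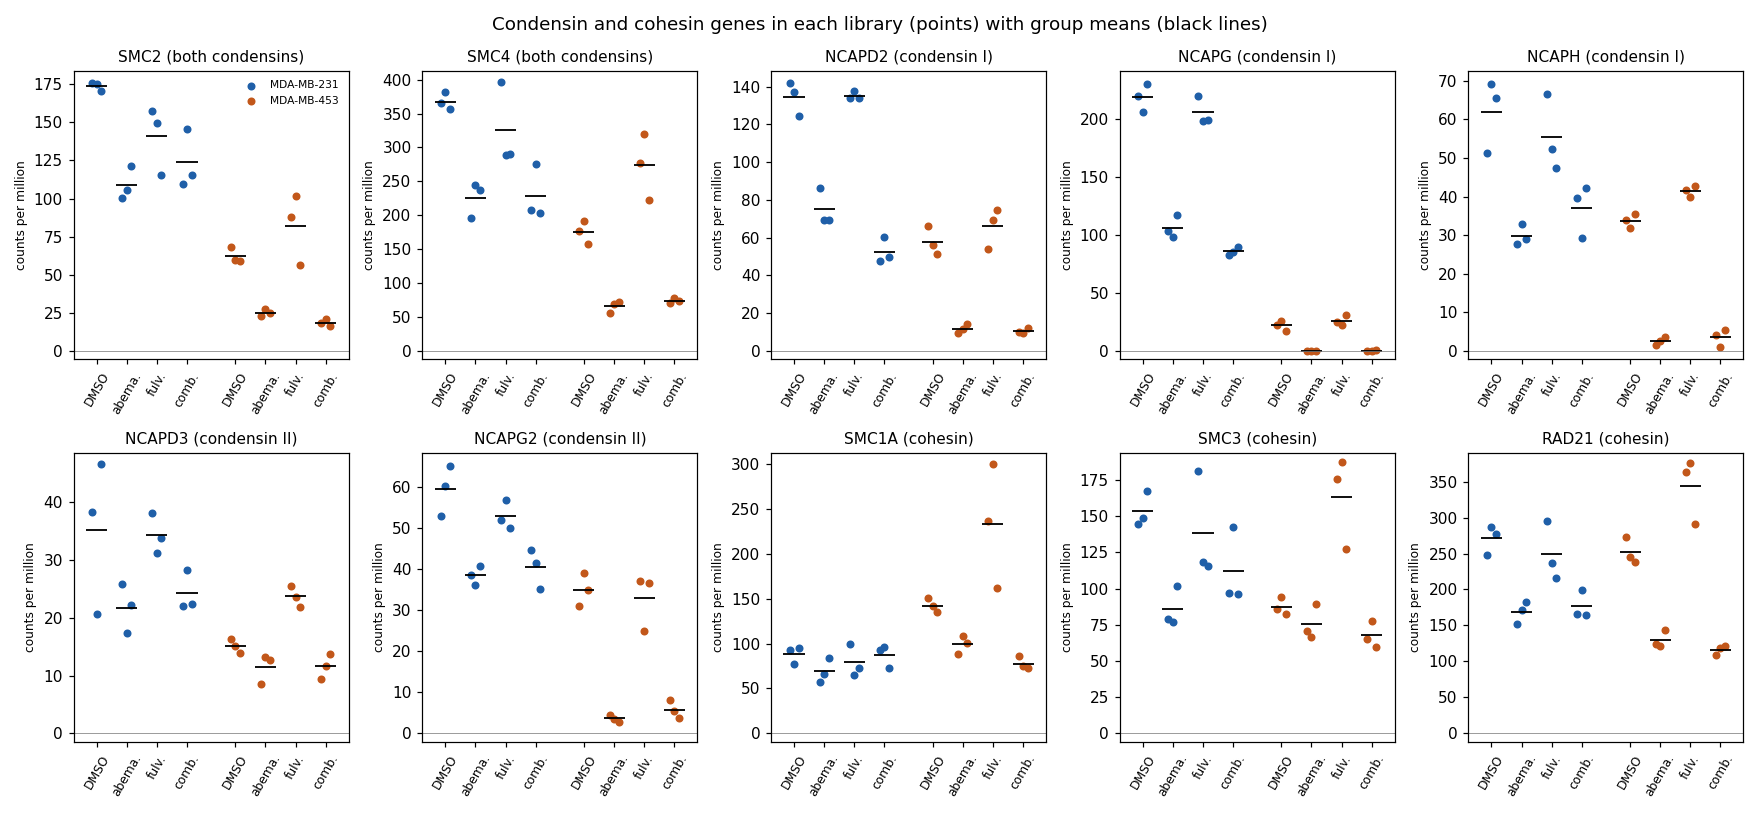
CPM of each gene (y axis, starting at 0) in every library, grouped by treatment on the x axis, with MDA-MB-231 in blue and MDA-MB-453 in orange, points for the 3 replicates and black lines for group means. NCAPG, NCAPH and NCAPG2 sit near 0 in the MDA-MB-453 libraries with abemaciclib, at means of 0.176, 2.53 and 3.61 CPM.

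Abemaciclib lowered the condensin genes among the 10 and the cohesin genes SMC3 and RAD21 in MDA-MB-231, whereas SMC1A did not pass the test. In this line 9 of the 10 genes fell and none rose, with a median log2 fold change of -0.69 against -0.00047 over all genes, and 16.9% of the 11314 genes tested fell. In 8 of the 10, every abemaciclib library lay below every DMSO library, as it did for 22.4% of genes. NCAPG and NCAPH of condensin I moved furthest among the 10. NCAPD2 of condensin I and SMC3 of cohesin came next with nearly equal changes, at 55.8% and 55.9% of DMSO. NCAPH2 of condensin II, outside the 10, changed by -0.88 on the log2 scale, further than NCAPD2 at -0.84.

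NCAPG fell from 219, 206 and 230.0 CPM with DMSO to 103, 98.1 and 117 CPM, leaving 48.5% (log2 fold change -1.04 ± 0.11, adjusted p = 1.86e-10). NCAPH, the kleisin that bridges the SMC heads of condensin I, fell from 51.2, 69.2 and 65.4 CPM to 27.8, 32.8 and 29.0 CPM (-1.05 ± 0.17, adjusted p = 5.07e-06). NCAPD2, the other HEAT-repeat subunit, fell from 142, 137 and 124 CPM to 86.3, 69.3 and 69.3 CPM (-0.84 ± 0.12, adjusted p = 7.22e-07). In none of these genes did the groups overlap.

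The shared ATPases and condensin II followed with smaller changes. SMC2 fell from 176, 175 and 171 CPM to 100.2, 106 and 122 CPM (-0.67 ± 0.12, adjusted p = 2.41e-05). SMC4 fell from 365, 381 and 356 CPM to 196, 244 and 238 CPM (-0.70 ± 0.11, adjusted p = 3.99e-06). In condensin II, NCAPG2 fell from 53.0, 60.2 and 65.1 CPM to 38.6, 36.2 and 40.8 CPM (-0.62 ± 0.15, adjusted p = 0.00144), again without overlap.

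NCAPD3, the HEAT-repeat subunit that NCAPD2 replaces in condensin I, was less even between replicates. Its DMSO libraries held 38.4, 20.7 and 46.7 CPM and overlapped the 25.8, 17.3 and 22.2 CPM with abemaciclib (-0.69 ± 0.22, adjusted p = 0.0135). It was no longer called without DMSO replicate 1 or 3 or abemaciclib replicate 2 (adjusted p = 0.055, 0.19 and 0.0887) and with the A-rich index as a covariate (-0.51, adjusted p = 0.138).

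Among the cohesin genes of MDA-MB-231, SMC3 fell from 144, 149 and 168 CPM to 78.6, 77.2 and 102 CPM (-0.84 ± 0.15, adjusted p = 1.4e-05). RAD21, the kleisin that separase cleaves at anaphase, fell from 248, 287 and 278 CPM to 151, 172 and 183 CPM (-0.68 ± 0.11, adjusted p = 3.63e-06). Both were separated from DMSO in every library. With the A-rich index as a covariate both kept their call at smaller sizes, SMC3 at -0.45 and RAD21 at -0.48. SMC1A did not pass, at 92.4, 77.4 and 95.1 CPM against 57.3, 66.5 and 83.9 CPM (-0.35 ± 0.15, 95% interval -0.64 to -0.05, adjusted p = 0.069), and its groups overlapped. It passed without DMSO replicate 2 (-0.43, adjusted p = 0.0468) or without abemaciclib replicate 3 (-0.51, adjusted p = 0.0159), and stood at -0.05 with the covariate (adjusted p = 0.848).

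In MDA-MB-453, abemaciclib left 0.798% to 20.4% of the DMSO level of the condensin I genes and NCAPG2, while RAD21 and SMC1A fell and SMC3 did not pass. Here 8 of the 10 genes fell and none rose, with a median log2 fold change of -1.28 against -0.0025 over all genes, and 19.4% of the 11080 genes tested fell. Every abemaciclib library lay below every DMSO library for 9 of the 10 genes, and for 27.6% of all genes.

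NCAPG was nearly undetected. It had 78, 96 and 61 counts with DMSO (22.8, 26.3 and 16.9 CPM) and 1, 1 and 0 counts with abemaciclib, 0.798% of the DMSO mean (fitted log2 fold change -6.59 ± 0.56, adjusted p = 1.78e-13). From the summed counts, 235 against 2, the level was 120.2-fold lower, with an exact 95% interval of 32.9 to 998 that covers counting error only.

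NCAPH fell from 33.9, 31.7 and 35.5 CPM to 1.52, 2.46 and 3.61 CPM, 7.51% of DMSO (-3.66 ± 0.32, adjusted p = 2.56e-13). NCAPG2, which with NCAPD3 and NCAPH2 distinguishes condensin II, fell from 31.0, 39.1 and 34.9 CPM to 4.55, 3.56 and 2.71 CPM, 10.3% of DMSO (-3.17 ± 0.29, adjusted p = 9.87e-13). NCAPD2 fell from 66.3, 56.1 and 51.2 CPM to 9.61, 11.8 and 14.1 CPM, 20.4% of DMSO (-2.21 ± 0.20, adjusted p = 6.23e-13). The treated and control libraries of these genes were far apart in every replicate.

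SMC2 and SMC4, which both condensins need, kept a larger share of their DMSO level than NCAPD2 in these libraries. SMC2 went from 68.1, 59.9 and 59.3 CPM to 23.3, 27.4 and 24.6 CPM, 40.2% of DMSO (-1.23 ± 0.18, adjusted p = 1.67e-07). SMC4 went from 177, 191 and 157 CPM to 55.4, 69.8 and 72.7 CPM, 37.7% of DMSO (-1.32 ± 0.12, adjusted p = 2.32e-12). NCAPD3, at 16.4, 15.1 and 13.8 CPM against 8.60, 13.1 and 12.6 CPM, did not pass (-0.32 ± 0.26, 95% interval -0.83 to 0.20, adjusted p = 0.373). The subunits of condensin II therefore showed unequal changes, with NCAPG2 at 10.3% and NCAPD3 at 75.9% of the DMSO mean.

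The 3 cohesin genes kept 51.5% to 86.2% of their DMSO level in MDA-MB-453, against 0.798% to 20.4% for the 3 condensin I genes. RAD21 fell from 274, 246 and 238 CPM to 125, 122 and 143 CPM, 51.5% of DMSO (-0.87 ± 0.10, adjusted p = 1.6e-09). SMC1A fell from 151, 142 and 135 CPM to 87.8, 108 and 101 CPM (-0.44 ± 0.13, adjusted p = 0.0081), a call lost without abemaciclib replicate 1 (-0.33, adjusted p = 0.0606) and larger with the A-rich index as a covariate (-0.99). SMC3 measured 85.6, 93.9 and 82.5 CPM with DMSO and 70.3, 66.2 and 89.3 CPM with abemaciclib, groups that overlapped (-0.13 ± 0.14, 95% interval -0.40 to 0.13, adjusted p = 0.481). With the A-rich index as a covariate SMC3 was called lower (-0.59, adjusted p = 0.00406).

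**Figure D3:**
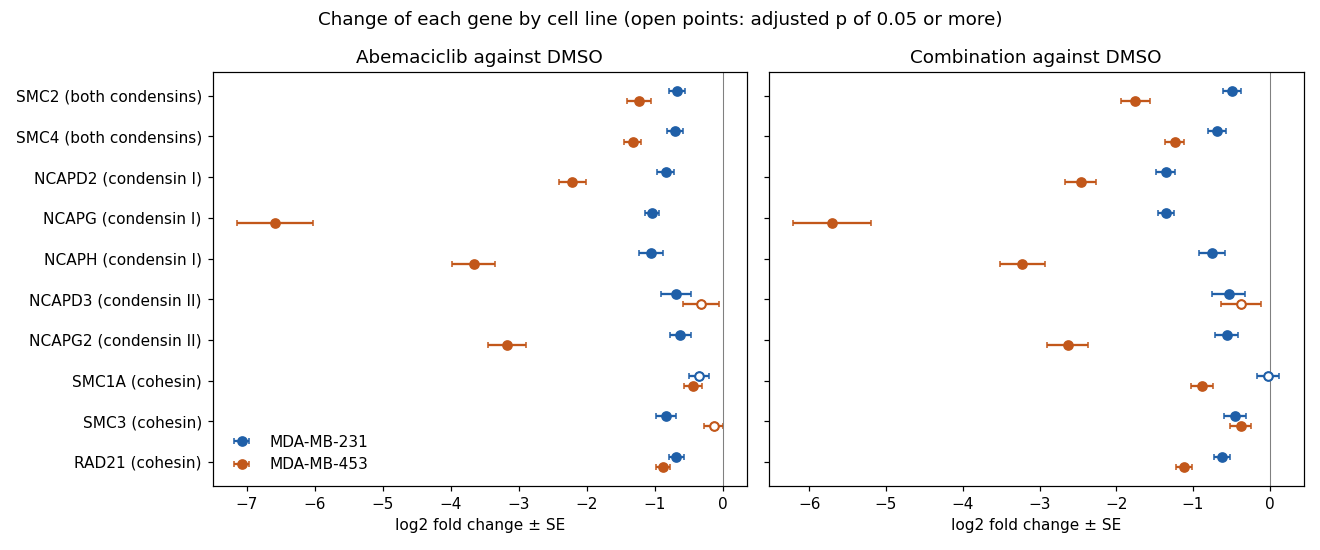
Log2 fold change ± SE against DMSO (x axis) of the 10 genes for abemaciclib (left) and the combination (right), with MDA-MB-231 in blue, MDA-MB-453 in orange and open points for genes that did not pass the test. NCAPG stands at -6.59 and -5.71 in MDA-MB-453 and at -1.04 and -1.35 in MDA-MB-231.

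The abemaciclib effect itself differed between the lines for condensin I, NCAPG2 and SMC4. Subtracting the MDA-MB-231 effect from the MDA-MB-453 effect, in a model of all 24 libraries, 5 of the 10 genes had a lower value and 1 a higher value, where 13.0% of the 12750 genes were lower and 7.72% higher. NCAPG differed by -5.55 ± 0.52 (adjusted p = 8.4e-12), NCAPH by -2.61 ± 0.37 (adjusted p = 3.42e-07) and NCAPG2 by -2.54 ± 0.31 (adjusted p = 1.19e-08). NCAPD2 differed by -1.36 ± 0.23 (adjusted p = 7.1e-06) and SMC4 by -0.62 ± 0.18 (adjusted p = 0.0101), which became -1.22 with the A-rich index as a covariate. These 5 genes all fell in both lines and fell further in MDA-MB-453.

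SMC3 was the gene with the higher value (0.71 ± 0.22, adjusted p = 0.0162), having been called lower in MDA-MB-231 and not called in MDA-MB-453, but the sign turned with the A-rich index as a covariate (-0.15, adjusted p = 0.773). The call was also lost without MDA-MB-231 DMSO replicate 3, MDA-MB-231 abemaciclib replicate 1 or MDA-MB-453 abemaciclib replicate 3 (adjusted p = 0.0783, 0.0816 and 0.147). No difference was called for SMC2 (-0.55 ± 0.22, adjusted p = 0.061), SMC1A (-0.08 ± 0.22, 95% interval -0.52 to 0.35), RAD21 (-0.18 ± 0.16, interval -0.49 to 0.12) or NCAPD3 (0.38 ± 0.35, interval -0.30 to 1.05). With the covariate, SMC2, SMC1A and RAD21 were called, at -1.23, -0.92 and -0.68. The index moved in opposite directions in the 2 lines with abemaciclib. For SMC4, SMC3, SMC2, SMC1A and RAD21 the size of a difference between lines depended on whether it was in the model. Because 1 slope served both lines and the index shifted with treatment, neither set of values can be taken as the corrected one.

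The combination was compared with the same DMSO libraries as abemaciclib. In MDA-MB-231 9 of the 10 genes fell, where 18.3% of genes fell, with a median of -0.59. NCAPD2 fell to 47.4, 60.6 and 49.7 CPM (-1.36 ± 0.13, adjusted p = 1.18e-11) and NCAPG to 82.7, 84.9 and 89.7 CPM (-1.35 ± 0.11, adjusted p = 1.67e-13), in both cases 39.2% of DMSO. NCAPH (-0.75), SMC4 (-0.69), RAD21 (-0.62), NCAPG2 (-0.56) and SMC2 (-0.49) also fell, with adjusted p from 4.83e-06 to 0.00312.

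SMC3 (-0.46 ± 0.14, adjusted p = 0.0102) and NCAPD3 (-0.54 ± 0.22, adjusted p = 0.0487) were nearer to the threshold in MDA-MB-231. SMC3 lost its call with totals free of mitochondrial genes (adjusted p = 0.0504) and without DMSO replicate 3, combination replicate 1 or combination replicate 3 (adjusted p = 0.0734, 0.0802 and 0.0834), and NCAPD3 lost its call in 9 alternatives, with adjusted p up to 0.432. SMC1A was level with DMSO, at 93.2, 95.7 and 72.4 CPM against 92.4, 77.4 and 95.1 CPM (-0.02 ± 0.15, 95% interval -0.31 to 0.26, adjusted p = 0.922), and the sign of this value turned in several alternatives.

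In MDA-MB-453 the combination lowered 9 of the 10 genes, where 20.0% of genes fell, with a median of -1.50. NCAPG had 0, 0 and 4 counts, 1.55% of the DMSO mean (fitted -5.71 ± 0.50, adjusted p = 5.93e-13). All 4 counts came from replicate 3, without which both libraries were at 0 and the fitted value was -9.27, which is no bound. By summed counts, 235 against 4, it was 56.3-fold lower, with an exact 95% interval of 21.7 to 208. NCAPH was left at 4.18, 1.16 and 5.36 CPM (-3.22 ± 0.30, adjusted p = 2.68e-12) and NCAPG2 at 8.00, 5.50 and 3.83 CPM (-2.63 ± 0.27, adjusted p = 4.71e-11).

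NCAPD2 was left at 10.1, 9.27 and 12.0 CPM in these cells (-2.46 ± 0.20, adjusted p = 4.54e-14), and SMC2 at 18.4, 21.1 and 16.3 CPM (-1.75 ± 0.18, adjusted p = 8.8e-11). SMC4 changed by -1.24 ± 0.12, RAD21 by -1.12 ± 0.10 and SMC1A by -0.88 ± 0.14, with adjusted p of 1.06e-06 or less. SMC3 passed narrowly (-0.38 ± 0.14, adjusted p = 0.0269) and did not pass with DESeq2, with totals free of mitochondrial genes, or without DMSO replicate 2, combination replicate 1 or combination replicate 3 (adjusted p from 0.0677 to 0.159), whereas with the A-rich index as a covariate it stood at -0.72 (adjusted p = 4.5e-05). NCAPD3 did not pass (-0.37 ± 0.26, 95% interval -0.89 to 0.14, adjusted p = 0.277). Totals free of mitochondrial genes raised the median of all genes by 0.12 on the log2 scale in this comparison.

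None of the 10 genes passed the test between the combination and abemaciclib alone. The log2 fold changes ran from -0.52 to 0.38 in MDA-MB-231, with a range of -0.52 to 0.88 for MDA-MB-453. No gene of the 10 was called (edgeR, lowest adjusted p = 0.116 and 0.0773), where 0.0265% and 2.46% of all genes did. Fulvestrant alone gave values from -0.30 to 0.01 against DMSO in MDA-MB-231, with 0 of the 10 genes and 0% of all genes called by edgeR, and 0 genes by DESeq2 (799 genes were below an unadjusted p of 0.05 in edgeR). This count rested on 1 library, since 205 genes were called without fulvestrant replicate 1. The interaction of the drugs is what the combination did beyond abemaciclib and fulvestrant added together on the log2 scale. In MDA-MB-231 it called 0 of the 10 genes, where 0.124% of genes were called. Without fulvestrant replicate 1 it called 3 of the 10, all higher, where 452 of all genes were called, 321 of them higher.

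In MDA-MB-453, fulvestrant was followed by higher levels of all 3 cohesin genes and of SMC4, in a comparison that rested on replicates 1 and 2. These 4 genes were called higher, where 1.05% of genes were. SMC3 measured 175, 187 and 127 CPM against 85.6, 93.9 and 82.5 CPM with DMSO (0.85 ± 0.13, adjusted p = 0.000218), SMC1A 237, 300.3 and 162 CPM against 151, 142 and 135 CPM (0.66 ± 0.13, adjusted p = 0.0038), and SMC4 277, 320.0 and 223 CPM against 177, 191 and 157 CPM (0.59 ± 0.11, adjusted p = 0.00326). RAD21 measured 364, 376 and 292 CPM against 274, 246 and 238 CPM (0.39 ± 0.10, adjusted p = 0.0317). Replicates 1 and 2, with the high A-rich index, were the higher fulvestrant libraries for each of these genes.

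None of the 4 was called with the index as a covariate, where SMC3 stood at 0.39, SMC4 at 0.19, RAD21 at 0.10 and SMC1A at 0.08, or with replicates 1 and 2 left out, where the values were 0.50, 0.31, 0.16 and 0.14 and only replicate 3 remained. Without fulvestrant replicate 2, or without DMSO replicate 3, 1 of the 4 was called. RAD21 lost its call without DMSO replicate 1, 2 or 3 or fulvestrant replicate 1 or 2 (edgeR, adjusted p from 0.0633 to 0.337). The interaction followed the same libraries: SMC1A (-1.10 ± 0.19, adjusted p = 0.000297), SMC3 (-1.09 ± 0.19, adjusted p = 0.000333), RAD21 (-0.64 ± 0.14, adjusted p = 0.00628) and SMC2 (-0.86 ± 0.25, adjusted p = 0.043) were called lower, where 2.66% of genes were, and none was called with the covariate or without the 2 libraries. SMC2 also lost its call without any one of 10 single libraries.

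**Figure D4:**
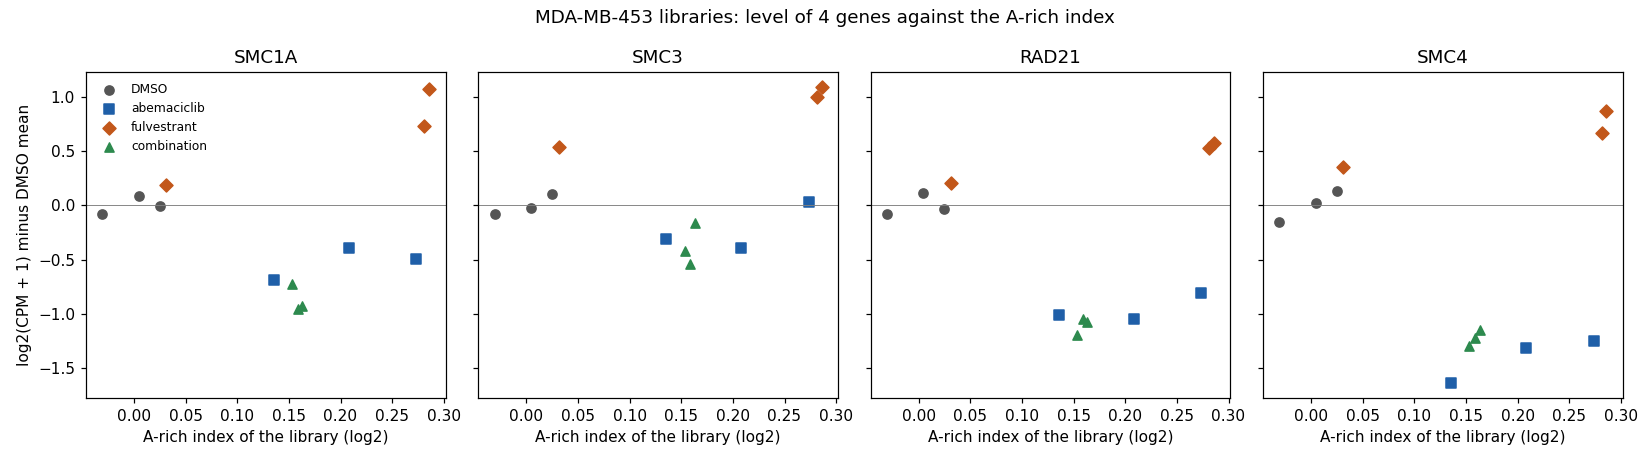
A-rich index of each MDA-MB-453 library (x axis, log2) against its level of SMC1A, SMC3, RAD21 or SMC4, as log2(CPM + 1) minus the DMSO mean (y axis), with 1 symbol per library. Fulvestrant replicates 1 and 2 lie at an index of 0.28 and 0.29 with the highest levels, and replicate 3 at 0.03 with a lower level.

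Of the remaining subunits, NCAPH2, the kleisin of condensin II, fell with abemaciclib in both lines, from 57.9, 64.8 and 55.7 CPM to 32.1, 31.9 and 33.2 CPM in MDA-MB-231 (-0.88 ± 0.16, adjusted p = 4.31e-05) and from 75.7, 86.8 and 98.0 CPM to 39.5, 39.4 and 36.7 CPM in MDA-MB-453 (-1.09 ± 0.14, adjusted p = 1.56e-08). STAG1 and STAG2 are alternative cohesin subunits that bind RAD21. Both fell in MDA-MB-231, STAG1 by -0.86 ± 0.25 (adjusted p = 0.00734) and STAG2 by -0.74 ± 0.14 (adjusted p = 2.98e-05) on the log2 scale. In MDA-MB-453 STAG2 rose from 63.7, 63.2 and 73.7 CPM to 75.7, 91.1 and 78.2 CPM (0.37 ± 0.13, adjusted p = 0.0258), and STAG1 did not pass (-0.64 ± 0.26, adjusted p = 0.0514). The STAG2 effect differed between the lines by 1.12 ± 0.19 (adjusted p = 1.34e-05). These values come from the main fits only, and the A-rich index as a covariate was not examined for NCAPH2, STAG1 or STAG2.

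SMC1B, the meiotic counterpart of SMC1A, was expressed in MDA-MB-453. It had 0 counts in all 3 DMSO libraries of MDA-MB-231 and 291, 278 and 265 counts in those of MDA-MB-453, at least 260.3-fold higher when set against 3 counts over the MDA-MB-231 group. In MDA-MB-453 it fell from 85.0, 76.1 and 73.4 CPM to 9.61, 9.03 and 11.7 CPM with abemaciclib, 12.9% of DMSO (-2.87 ± 0.18, adjusted p = 1.33e-17), and to 8.00, 8.11 and 9.70 CPM with the combination (-3.17 ± 0.19, adjusted p = 1.21e-18). In MDA-MB-231 SMC1B reached at most 2 counts in a library, and the other germline cohesin genes, RAD21L1, REC8 and STAG3, were too low to be tested in either line.

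Regulators of cohesin were lowered in part. Of 13 regulators, 8 fell and none rose with abemaciclib in MDA-MB-231, where 16.9% of all genes fell and 16.9% rose, and 5 fell and 2 rose in MDA-MB-453, where 19.4% fell and 16.6% rose. PTTG1 (securin, the inhibitor of separase) fell from 516, 522 and 515 CPM to 237, 239 and 264 CPM in MDA-MB-231 (-1.07 ± 0.09) and from 101, 119.6 and 117 CPM to 1.52, 0.274 and 0 CPM in MDA-MB-453 (-7.31 ± 0.29, adjusted p = 2.31e-25). ESCO2, which acetylates SMC3 in S phase, fell by -1.13 ± 0.25 in MDA-MB-231 and by -5.15 ± 0.55 in MDA-MB-453. CDCA5 (sororin, which protects cohesin from release) fell in MDA-MB-453 (-3.18 ± 0.39, adjusted p = 5.31e-09), and PDS5B, which binds cohesin through RAD21, fell in MDA-MB-231 (-0.87 ± 0.16, adjusted p = 2.85e-05). The 2 regulators that rose in MDA-MB-453, named after their values were seen, were the loader subunits NIPBL (0.43, adjusted p = 0.0116) and MAU2 (0.59, adjusted p = 0.0343). Neither call was examined with the A-rich index as a covariate.

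The third SMC complex, SMC5/6, which acts in DNA repair, has 6 genes in the list. SMC6 (-0.74 ± 0.15) and SMC5 (-0.54 ± 0.18) fell in MDA-MB-231, where 16.9% of all genes fell, and none of the 6 passed in MDA-MB-453, where 19.4% fell. Of the 4 partners of condensin on mitotic chromosomes, 3 fell in each line, beside the same shares of all genes. Their levels were 36.6% (MKI67), 53.1% (TOP2A) and 69.2% (KIF4A) of DMSO in MDA-MB-231, and 0.591%, 0.969% and 1.66% in MDA-MB-453. TOP2A, the topoisomerase that decatenates sister chromatids, went from 302, 271 and 312 CPM to 2.28, 3.28 and 3.01 CPM in the latter (-6.60 ± 0.17, adjusted p = 2.52e-32).

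Across the 8 group means of log2(CPM + 1), over 8430 genes, the genes most like NCAPH were MCM10 (Pearson r = 0.997), CLSPN (r = 0.996) and CDK1 (r = 0.995). Those most like NCAPG2 were PARPBP (r = 0.998), PACSIN3 and DEPDC1 (both r = 0.99), and those most like RAD21 were ATAD2 (r = 0.995), PTMA and FIGNL1 (both r = 0.99). The 8 means share libraries and cell lines, so these values describe likeness and carry no test.

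By position in GENCODE release 44 (GRCh38), NCAPG lies at chr4:17810979-17844865 on the plus strand, NCAPH at chr2:96335766-96377091 on the plus strand and NCAPG2 at chr7:158631169-158704804 on the minus strand. Exons of SMC4, NCAPD2, NCAPG, NCAPD3, SMC1A and RAD21 overlap an exon of another gene on the opposite strand (for NCAPG, LCORL), and exons of SMC2, NCAPH, NCAPG2 and SMC3 overlap none. The strand used in counting was not given in the sources used here, so for the former genes reads from the opposite strand cannot be told apart.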

How the data were processed

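Gene counts were analysed for 24 libraries of 3′ RNA-seq (QuantSeq forward, single-end) in 8 groups of 3. The values are raw counts, deposited without normalisation: the authors used BBDuk for trimming, STAR for alignment (hg38) and featureCounts with GENCODE for counting. Counting strand, multi-mapped reads and molecular identifiers were not given in the sources used here, so counting intervals and floors cover counting error only. The table names 59609 genes, and 1 unnamed line held 0 counts.

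Counts were fitted with edgeR 4.0.16 in R 4.3.3: filterByExpr, TMM scaling and quasi-likelihood tests, 2-sided, in the 12 libraries of each line, or in all 24 for differences between lines. Calls required a p below 0.05 after Benjamini-Hochberg adjustment across every gene in the fit. SE was the absolute log2 fold change divided by the root of F. The biological coefficient of variation was 13.4% for the MDA-MB-231 libraries, against 12.6% for those of MDA-MB-453. DESeq2, which the study used in another version, was run as an alternative (version 1.42.0 here). Further alternatives were other scalings, no filter, a replicate block, only the groups compared, and each library left out. The A-rich index (12-base windows with at least 9 As, the last 60 bases left out, genes averaging at least 30 counts per library, CPM + 2) and the removal of 2 fulvestrant libraries were added after seeing the data. Replicates of a group differed by more than sampling noise (chi-square per degree of freedom 2.64 to 8.65). The genes, lists and tests were chosen with earlier results of these data known.

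All 10 genes were named for abemaciclib and the combination against DMSO and for differences between lines, and elsewhere when called. From each list of other pathway genes, up to 3 called genes with the largest absolute change with abemaciclib and at least 10 CPM in 1 group were named. Positions were taken from GENCODE release 44 and promoters from RefSeq.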

Additional observations from a re-analysis of the deposited data

Results flagged for a closer look

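The abemaciclib effect differed between the cell lines, by a test of the difference itself in edgeR, for 6 of the 10 condensin and cohesin genes. Subtracting the MDA-MB-231 effect from the MDA-MB-453 effect, on the log2 scale, gave -5.55 for NCAPG, -2.61 for NCAPH, -2.54 for NCAPG2, -1.36 for NCAPD2, -0.62 for SMC4 and 0.71 for SMC3. The fold changes of all 6 were negative in both lines, and the first 5 fell further in MDA-MB-453. SMC3 is the exception in sign, and its value turned to -0.15 with the A-rich index as a covariate. The culture media differed between the lines and cannot be told apart from them.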

How the results depend on the processing

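Among values of single condensin and cohesin genes in the alternatives, 860 kept direction and side of the threshold, 62 lost their call, 10 gained one and 10 changed sign. For abemaciclib, 8 to 10 of the 10 genes were called in MDA-MB-231, against 7 to 9 for MDA-MB-453. For the combination the counts were 7 to 9 and 8 to 9, for DMSO between lines 9 throughout, and for the difference of the abemaciclib effect 5 to 8. The same-numbered replicates did not deviate together (correlations from -0.18 to 0.054). Whether the numbers pair the samples was not stated in the sources used here, and these correlations cannot settle it. A replicate block called 9 (MDA-MB-231) and 8 (MDA-MB-453) genes for abemaciclib, 8 and 9 for the combination, 4 for fulvestrant and 3 for the interaction in MDA-MB-453 and 6 for the difference, where SMC2 in the interaction was lost (-0.83, adjusted p = 0.0518) and NCAPD3 with the combination in MDA-MB-231 was lost (-0.49, adjusted p = 0.0758). No block could be fitted between lines under DMSO.

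In MDA-MB-453, fulvestrant called 4 genes and the interaction 4, against 0 and 0 with the A-rich index as a covariate and 0 and 0 with fulvestrant replicates 1 and 2 left out. Leaving out 1 library gave 1 to 5 for fulvestrant and 3 to 5 for the interaction. For the combination against abemaciclib, 0 genes became 1 in MDA-MB-453 with no filter, with only the 2 groups compared, or without abemaciclib replicate 1 (0 to 1), and 1 in MDA-MB-231 without abemaciclib replicate 3 (0 to 1). The interaction in MDA-MB-231 gave 3 genes without fulvestrant replicate 1 (0 to 3).

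Signs turned for SMC1A with the combination in MDA-MB-231 (0.062 with totals free of mitochondrial genes, 0.0035 with no filter, -0.11 to 0.088 over single libraries left out), RAD21 between lines under DMSO (0.0017 with those totals), and, for the difference of the abemaciclib effect, NCAPD3 (-0.038) and SMC3 (-0.15) with the covariate and SMC1A (-0.27 to 0.015 over libraries left out). The causes were not tested.

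Counts over all genes moved by over 1.5 times mainly where few genes were called. Fulvestrant in MDA-MB-453 called 161 genes, against 334 with DESeq2, 269 with no filter, 7 with the covariate, 1 without both libraries, and 5 (without fulvestrant replicate 2) to 786 (without replicate 3) with 1 library left out. In the interaction 420 genes became 10 with the covariate and 22 without both libraries, and 191 to 874 (without fulvestrant replicates 2 and 3 in turn). For the combination against abemaciclib 273 became 441 with the covariate, and 83 (without combination replicate 2) to 517 (without abemaciclib replicate 1). Abemaciclib in MDA-MB-453 went from 3989 to 2413 with the covariate, and the difference between lines from 2639 to 1373. In MDA-MB-231, fulvestrant went from 0 to 14 with no filter and 205 without fulvestrant replicate 1. The combination against abemaciclib went from 3 to 75 with DESeq2, 49 with no filter, 30 with 2 groups, 9 with the covariate, 5 with DESeq2 size factors and 0 to 96 (without abemaciclib replicates 1 and 3 in turn), and the interaction from 14 to 132 with no filter, 127 with DESeq2, 6 with the block, 0 with the covariate, 160 without abemaciclib replicate 3 and 452 without fulvestrant replicate 1 (2 at the lowest). Depth limits NCAPG, NCAPH and NCAPG2 in treated MDA-MB-453 cells, where groups held 2 to 57 counts.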
